A study of Mus musculus with 9 samples.

Results

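The genes described here are those of the cytosolic ribosomal proteins, measured by RNA sequencing in induced regulatory T cells (Treg, CD4 T cells that carry Foxp3 and restrain immune responses) of C57BL/6J mice. They were the protein-coding rows of the count table whose symbol begins with Rpl or Rps and a digit, without the Rps6k kinases, together with Rplp0, Rplp1, Rplp2 and Rpsa. This rule gave 101 of 28111 rows. Of these, 46 encode proteins of the large (60S) subunit and 31 proteins of the small (40S) subunit, 77 canonical members in all. The other members were 7 paralogs of canonical genes, 16 rows with a pseudogene name that are annotated as protein-coding, and Rps19bp1, which encodes a protein that binds Rps19 and is not part of the ribosome. The low-count filter kept 94 members, including all 77 canonical ones, 6 paralogs, 10 pseudogene-named rows and Rps19bp1.

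The study compared Glut1 transgenic (Glut1Tg) with wild-type (WT) cells, Glut1 being the glucose transporter encoded by Slc2a1. The labels also put each library in mouse group 1 or 2. WT replicates 1 and 3 and Glut1Tg replicates 2, 3 and 4 were in mouse group 1, and WT replicates 2, 4 and 5 and Glut1Tg replicate 1 in mouse group 2, so that 1 library stands for transgenic cells of group 2. The sources used here do not say what drives the transgene, how the cells were induced, what a mouse group is, or whether each library came from its own animal. The p-values therefore measure only how far these libraries scatter, part of which may be technical.

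Ribosomal proteins assemble with ribosomal RNA into the subunits that translate every cytosolic mRNA, and the subunits need them in nearly equal numbers. Their mRNAs are among the most abundant of a lymphocyte and begin, in textbook accounts, with a C followed by an unbroken run of pyrimidines, the 5′ terminal oligopyrimidine (TOP) motif. Through this motif the kinase mTOR and the protein Larp1 couple their translation to nutrient and growth signals. Counts of mRNA do not measure translation.

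The start sequences of members that the results below turn on are shown first, because they hold the TOP motif where the annotation places the start at it. Each is 30 bases of GRCm38.p6 from RefSeq's table, 15 on each side of the annotated start and read 5′ to 3′ on the gene's strand, with a run of pyrimidines that opens with C in capitals. The run marked is that of at least 5 bases covering the annotated start or, where there is none, the longest of the window. Rps6, the S6 kinase substrate of the 40S subunit, lies at chr4:86857353-86857382 on the minus strand. Rplp2 of the 60S stalk lies at chr7:141447636-141447665 on the plus strand. Rps27 and Rps15a, the 40S genes with the lowest fold changes between mouse groups, lie at chr3:90213634-90213663 and chr7:118116133-118116162, both on the minus strand.
Rps6: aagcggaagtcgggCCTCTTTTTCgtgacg
Rplp2: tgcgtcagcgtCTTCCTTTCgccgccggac
Rps27: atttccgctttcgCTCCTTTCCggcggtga
Rps15a: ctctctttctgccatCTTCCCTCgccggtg

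The next windows belong to the members that were not highest and lowest in the same libraries as most of the family. Rps2 lies at chr17:24720048-24720077 and Rps27l at chr9:66946071-66946100, both on the plus strand, and Rpl7l1 at chr17:46782642-46782671 on the minus strand. Rpl4 (chr9:64173372-64173401) and Rpsa (chr9:120127751-120127780), both on the plus strand, are canonical members of high abundance that had the same highest library as most of the family.
Rps2: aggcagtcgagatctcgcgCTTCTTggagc
Rps27l: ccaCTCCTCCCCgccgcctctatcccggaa
Rpl7l1: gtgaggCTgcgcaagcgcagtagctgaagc
Rpl4: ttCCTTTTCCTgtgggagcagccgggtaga
Rpsa: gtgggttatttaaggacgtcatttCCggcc

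In Rps6, Rplp2, Rps27 and Rps15a the run covered the annotated start and was 10, 9, 9 and 8 bases long. In Rps2 a run of 6 bases began 4 bases after the start, and in Rps27l a run of 9 bases began 12 bases before it. No run of at least 5 bases covered the annotated start in Rps2, Rps27l or Rpl7l1, nor in Rpl4, where a run of 9 bases began 13 bases before it, or in Rpsa. Among other canonical members, such a run covered the start in Rpl14, Rpl39 and Rps9 but not in Rplp0, Rpl12 or Rpl5. The 4 windows shown first therefore do not stand for all canonical members. The annotated start base was a C followed by at least 4 pyrimidines in 3.01% of the 27025 genes of the table. Promoter entries were found for 57 of the 77 canonical members, under 80%, so a share over the members would be void and none is given. The annotated start can lie some bases from the start used in these cells.

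The 150 bases before the start are shown for Rps27, Rps27l and Rps2, a canonical gene, its paralog and the 40S gene with the largest fold change between genotypes. They lie at chr3:90213649-90213798 (minus strand), chr9:66945936-66946085 (plus) and chr17:24719913-24720062 (plus). Capitals mark matches on either strand to AAGATGGC (the YY1 motif), CCGGAAG (the GABPA motif) or CACGTG (the E-box bound by Myc).
Rps27: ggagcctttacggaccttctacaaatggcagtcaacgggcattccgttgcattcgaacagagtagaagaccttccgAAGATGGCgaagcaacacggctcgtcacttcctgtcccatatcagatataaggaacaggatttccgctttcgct
Rps27l: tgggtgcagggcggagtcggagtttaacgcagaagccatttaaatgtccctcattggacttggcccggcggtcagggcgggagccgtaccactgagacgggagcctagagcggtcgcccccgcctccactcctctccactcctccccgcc
Rps2: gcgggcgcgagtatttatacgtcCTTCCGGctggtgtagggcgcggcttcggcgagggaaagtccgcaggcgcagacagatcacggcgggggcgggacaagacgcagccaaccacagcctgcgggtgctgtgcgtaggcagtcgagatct

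Rps27 held AAGATGGC at base -74 from the start, and Rps2 held CCGGAAG on the opposite strand at base -127. None of the 3 motifs was found in the stretch shown for Rps27l, but CCGGAAG was present in its wider window, from 250 bases before to 50 after the start. Over such windows, AAGATGGC was found in 3.19%, CCGGAAG in 9.93% and CACGTG in 8.09% of the 27025 genes. Among 13090 protein-coding genes of the count table the shares were 4.2%, 15.7% and 10.4%. These matches describe letters, not binding.

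The libraries held 20881035 to 31196428 counts each, and 14817 genes passed the low-count filter. Slc2a1, the transgene's product, was at 260 to 496 CPM (edgeR's counts relative to library totals, scaled by its TMM method) in the 4 Glut1Tg libraries and at 29.7 to 58.7 in the 5 WT libraries (edgeR adjusted p = 0.000903). Foxp3 was at 621 to 1164 CPM in all 9 libraries, lowest in Glut1Tg replicate 3. All 9 listed CD4 T cell and Treg markers had a mean above 1 CPM. Their sum was also lowest in Glut1Tg replicate 3, at 3404 CPM, against 4049 to 6531 in the other 8 libraries. WT replicate 2 and Glut1Tg replicate 1 stood apart by their proliferation genes: the 14 listed genes summed to 6498 and 6940 CPM there, to 1711 to 2754 in the other WT and to 1282 to 2162 in the other Glut1Tg libraries. Glut1Tg replicate 3 stood apart by transcripts of other cell types. Its 10 mast cell and basophil markers summed to 2604 CPM, against 93.5 to 858 in the other 8 libraries. Its 10 neutrophil and macrophage markers summed to 399 CPM, against 4.12 to 27.2 elsewhere, and its 7 erythroid and platelet markers to 1035 CPM, against 4.73 to 281. Every marker of these 3 lists had a count in Glut1Tg replicate 3. Of the mast cell and neutrophil lists, Prss34, Mcpt4, Mpo and Elane were at 0 in WT replicate 2, and Fcgr1 and Elane in Glut1Tg replicate 1.

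The ribosomal protein genes took between 6.77% and 12.7% of all counts. In WT replicates 1 to 5 their share was 8.73%, 6.77%, 8.35%, 9.32% and 7.90%. In Glut1Tg replicates 1 to 4 it was 7.06%, 9.48%, 12.7% and 9.20%. At this depth the 95% Wilson intervals reached from 12.72% to 12.74% around the highest share and from 6.76% to 6.78% around the lowest, and cover counting error only. The genotypes overlapped: the lowest Glut1Tg library lay below 4 of the 5 WT libraries. The mean was 9.61% ± 2.34 (SD, n = 4) in Glut1Tg and 8.21% ± 0.959 (SD, n = 5) in WT, a difference of 1.401 percentage points, smaller than the SD of the Glut1Tg libraries. In these bulk samples, fewer cells of a type and less RNA per cell cannot be told apart.

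**Figure D1:**
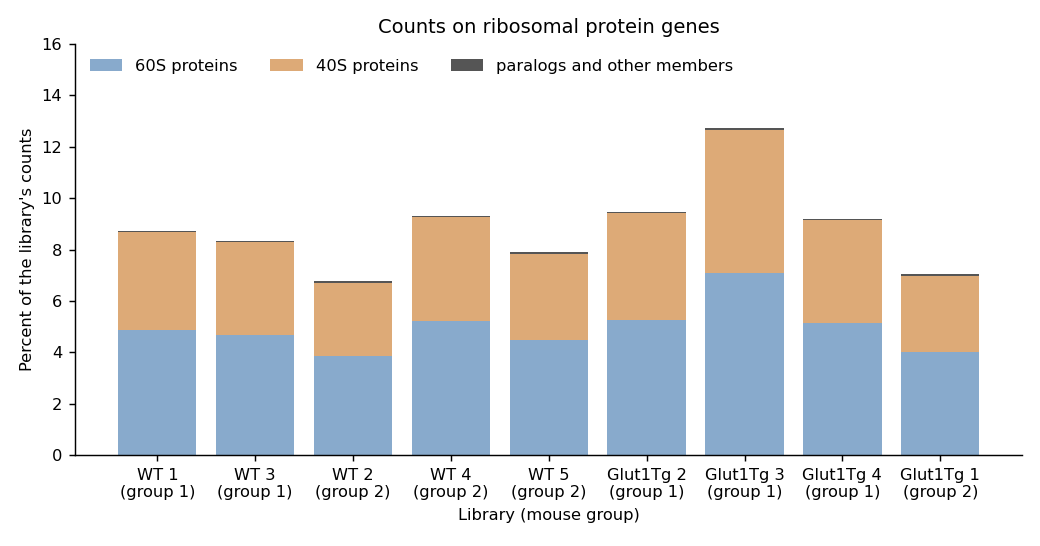
Bars give the counts on ribosomal protein genes as a percent of each library's counts (y axis) for the 9 libraries (x axis, mouse group in brackets). Glut1Tg replicate 3 is highest at 12.7%, and WT replicate 2 and Glut1Tg replicate 1 are lowest at 6.77% and 7.06%.

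The large-subunit genes took 3.85% to 7.09% of the counts and the small-subunit genes 2.86% to 5.56%. The ratio of 60S to 40S counts was 1.27 in WT replicate 1 and 1.28 in WT replicate 3, 1.34 in WT replicate 2, 1.301 in WT replicate 4 and 1.32 in WT replicate 5. It was 1.28 in each of Glut1Tg replicates 2, 3 and 4, and 1.35 in Glut1Tg replicate 1. The 5 libraries of mouse group 1 thus lay below all 4 libraries of mouse group 2, with Glut1Tg replicate 3, the library with the most ribosomal protein counts, among the former.

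Relative to the mean of the WT libraries, the median canonical member was at a log2 difference of 0.80 in Glut1Tg replicate 3, with the middle 50% of members between 0.67 and 0.91. It was at 0.31 in Glut1Tg replicate 2 and 0.29 in Glut1Tg replicate 4. It was at -0.19 in Glut1Tg replicate 1, with the middle 50% of members between -0.27 and 0.01. That library lay below 4 of the 5 WT libraries, whose medians ran from -0.26 in replicate 2 to 0.15 in replicates 1 and 4. Of the 77 canonical members, 75 were highest in Glut1Tg replicate 3, as were 21.3% of all genes tested. The other two were Rps2, highest in Glut1Tg replicate 1, and Rpl32, a 60S gene at 1480 CPM in Glut1Tg replicate 4 and 1404 in Glut1Tg replicate 3. WT replicate 2 was lowest for 51 of the 77 and Glut1Tg replicate 1 for 13, against 10.9% and 20.2% of all genes. The library highest in these genes was thus also highest in the markers of mast cells, neutrophils and red cells, and the 2 lowest were those with the most proliferation transcripts. The part of these in the ribosomal protein values was not tested.

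**Figure D2:**
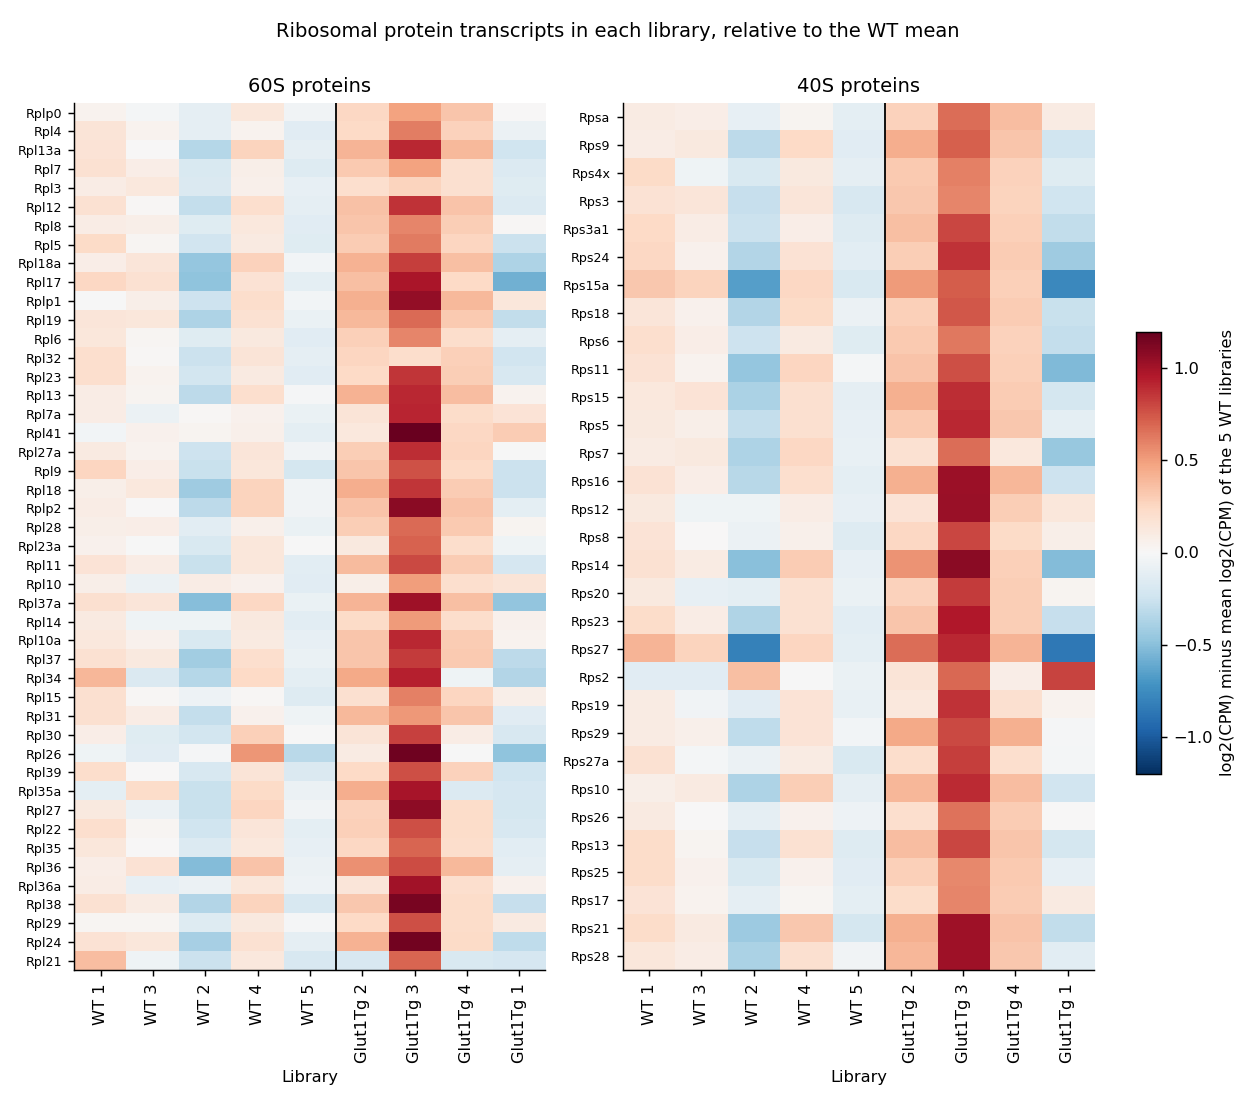
Log2 CPM of each canonical member (rows) in each of the 9 libraries (columns), as the difference from that member's WT mean, with red above and blue below it. The column of Glut1Tg replicate 3 is red in nearly every row. Those of WT replicate 2 and Glut1Tg replicate 1 are blue in most rows. Rps2, Rpl41 and Rpl10 are among the exceptions, above the WT mean in both.

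The question of the main comparison was whether transgenic and WT Treg differ. No member passed the genotype test: 0 of 94 had an adjusted p under 0.05 (edgeR, mouse group as a term), and the smallest adjusted p was 0.681. Over all 14817 genes 0.00675% passed, which is Slc2a1 alone. At an unadjusted p under 0.05, 3 members were higher in Glut1Tg (Rps2, Rps19bp1 and Rpl7a-ps5) and 0 lower, where 4.5% of all genes were higher and 1.5% lower. DESeq2 and limma-voom also called 0 members. The log2 fold changes nevertheless lay mostly on one side. In all, 88 of 94 were above 0, with a median of 0.21, where 52.4% of all genes were above 0 and the median was 0.02. Their median SE was 0.20, as large as the median difference. The median was 0.20 for the 60S and 0.21 for the 40S genes.

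This tilt rested in large part on Glut1Tg replicate 3. Without it the median of the members was 0.06 and 71 of 94 were above 0. It also differed between the mouse groups, whose libraries are unevenly spread over the genotypes. Within mouse group 1 the median difference was 0.37, with 90 of 94 members above 0. Within mouse group 2, where 1 transgenic library stands against 3 WT libraries, it was -0.08, with 37 of 94 above 0. That library, Glut1Tg replicate 1, was also among those with the most proliferation transcripts. Mouse group therefore cannot be told apart from the state of this library. The interaction, the log2 fold change in mouse group 2 minus that in group 1, was below 0 for 85 of 94, with a median of -0.45, where 50.4% of all genes lay above 0. Its test called 0 members. The smallest edgeR adjusted p was 0.741, and 0% of all genes were called. At an unadjusted p under 0.05, 1 member was lower, Rps27rt, and 0 higher, where 4.08% of all genes were lower and 1.23% higher. DESeq2 was not run for the interaction.

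Within mouse group 1 alone, all 3 Glut1Tg libraries lay above both WT libraries for 70 of the 77 canonical members, 40 of 46 in the large and 30 of 31 in the small subunit. Among all genes tested the share was 11.9% in that direction and 10.4% in the other, where no member lay. Without Glut1Tg replicate 3 the count was also 70 of the 77, against 17.4% of all genes. Leaving out a Glut1Tg library cannot lower this count, and replicate 3 was the highest for 75 of the 77. The second count thus follows from the first and is no check on it. The comparison is of 3 libraries against 2, so the separation is given as a count, with no test. Over all 9 libraries, the genotypes did not overlap for 4 members, Rpsa, Rpl7a, Rpl41 and Rps12, each higher in Glut1Tg, which is 4.26% of those tested against 1.01% of all genes. No member was lower without overlap, as were 0.58% of all genes.

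**Figure D3:**
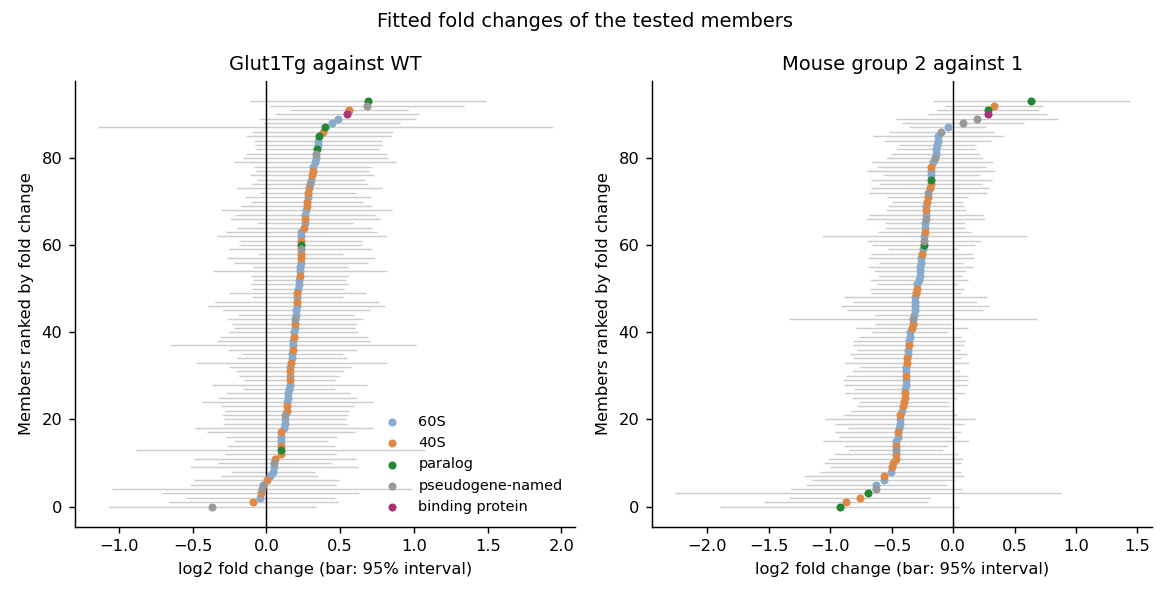
Log2 fold changes of the 94 members tested, ranked from lowest to highest (y axis), for Glut1Tg over WT on the left and mouse group 2 over 1 on the right, with 95% intervals as grey bars and colours for the kind of member. Of the points, 88 lie above 0 on the left and 88 below 0 on the right, and most intervals reach across 0.

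The P stalk of the large subunit recruits the translation factors that hydrolyse GTP. Its scaffold Rplp0 was at 3008, 2715, 2873, 3207 and 2829 CPM in WT replicates 1 to 5 and at 2941, 3478, 4095 and 3673 CPM in Glut1Tg replicates 1 to 4. Glut1Tg replicate 1 lay among the WT libraries and the other 3 above them. The fold change was 1.17 (95% interval 0.93 to 1.46, edgeR adjusted p = 0.681). Rplp1, one of the acidic proteins carried by Rplp0, was at 1153, 975, 1216, 1341 and 1131 CPM in WT and at 1270, 1552, 2400 and 1517 CPM in Glut1Tg. Its fold change was 1.36 (0.99 to 1.87, edgeR adjusted p = 0.681). Rplp2, the partner of Rplp1, ran from 704 to 1049 CPM in WT and from 803 to 1855 in Glut1Tg. Rpl12, at the base of the stalk, ran from 1205 to 1685 CPM in WT and from 1311 to 2674 in Glut1Tg. All 4 stalk genes had a fold change above 0, with a median log2 of 0.28, and 0 passed.

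Rpl5 and Rpl11, which bind 5S RNA and, outside the ribosome, the p53 regulator Mdm2, had log2 fold changes of 0.10 and 0.19 (SE 0.17 and 0.18). Rpl3, Rpl8, Rpl10 and Rpl10a, near the peptidyl transferase centre or in the L1 stalk, had a median of 0.23. Rpl3 differed least of these, at 1829, 1524, 1875, 1794 and 1611 CPM in WT and 1561, 1986, 2071 and 1965 CPM in Glut1Tg. Its log2 fold change was 0.04 (SE 0.13), and it turned to -0.02 with upper-quartile scaling and to -0.04 with library totals alone. The 8 genes around the peptide exit tunnel all lay above 0, with a median of 0.16. Rpl4 of that group, with a long loop that reaches into the tunnel, was at 3068, 2566, 2836, 2843 and 2516 CPM in WT and at 2625, 3259, 4210 and 3331 CPM in Glut1Tg. Its log2 fold change was 0.17 (SE 0.15), with Glut1Tg replicate 1 again among the WT libraries.

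Rpl41, which encodes the smallest ribosomal protein, was the canonical 60S gene with the largest fold change. It was at 981, 1027, 1036, 1047 and 924 CPM in WT and at 1236, 1093, 2276 and 1190 CPM in Glut1Tg. The groups did not overlap, and Glut1Tg replicate 3 lay far above the other 8 libraries. WT replicate 2 and Glut1Tg replicate 1, low for most members, lay above the WT mean of 1003 CPM here. The fold change was 1.398 (0.97 to 2.02, edgeR adjusted p = 0.681). Rpl13a, known for a role outside the ribosome in interferon-dependent translational silencing, ran from 1852 to 2820 CPM in WT and from 1982 to 4385 in Glut1Tg, a log2 fold change of 0.24 (SE 0.23).

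In the small subunit, Rpsa forms part of the mRNA exit site. It was at 2638, 2306, 2597, 2521 and 2267 CPM in WT and at 2643, 2975, 3925 and 3172 CPM in Glut1Tg. The groups did not overlap, although Glut1Tg replicate 1 and WT replicate 1 were at nearly the same level. The fold change was 1.22 (0.97 to 1.52, edgeR adjusted p = 0.681). The 5 genes of the exit site had a median log2 fold change of 0.26, the 3 of the mRNA entry site 0.18 and the 3 at the decoding centre and head 0.21, and all 11 lay above 0. Rps6, phosphorylated by the S6 kinases, was at 1440, 1056, 1322, 1350 and 1130 CPM in WT and at 1027, 1556, 1934 and 1512 CPM in Glut1Tg. Glut1Tg replicate 1 was the lowest of all 9 libraries and the other 3 Glut1Tg libraries were the highest. Its log2 fold change was 0.10 (SE 0.17), and -0.005 without Glut1Tg replicate 3. Rps9, at the entry site, and Rps4x, an X-linked 40S gene, had log2 fold changes of 0.18 (SE 0.20) and 0.16 (SE 0.16). The 14 listed genes mutated in Diamond-Blackfan anaemia, spread over both subunits, lay above 0 with a median of 0.22 and the lowest at 0.00077. Of all 77 canonical members 74 lay above 0, so this sign is not particular to the list.

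Rps2, an entry-site protein of the 40S subunit, was an exception to the order of the libraries. It was at 831, 1176, 831, 908 and 864 CPM in WT replicates 1 to 5 and at 1599, 1016, 1474 and 964 CPM in Glut1Tg replicates 1 to 4. WT replicate 2 and Glut1Tg replicate 1, low for most members, were the highest libraries of their genotypes here. The fold change was 1.48 (1.12 to 1.94), with an unadjusted p of 0.011 and an edgeR adjusted p of 0.681. Rps2 was also the only canonical member above 0 between mouse groups, with a log2 fold change of 0.33 (SE 0.18, edgeR adjusted p = 0.196). About 71.1% of the 75-base windows of its transcript also occur in transcripts of other genes, and the table held 7 pseudogene rows named for it, so the split of its reads is uncertain.

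Mouse group 2 was compared with mouse group 1 in the same fit. No member passed: 0 of 94 were called, where 24.1% of all genes were, 13.1% higher and 11% lower in group 2. Of the 94, 88 lay below 0 and 6 above it, where 49.2% of all genes lay above 0, and the median log2 fold change was -0.31 against -0.01 over all genes. At an unadjusted p under 0.05, 12 members were lower and 0 higher in group 2, where 18.4% of all genes were lower and 21% higher. The groups did not overlap for 9 members, all lower in group 2, which is 9.57% of those tested, close to the 11.4% of all genes. These were Rps3, Rps3a1, Rps15a, Rps27, Rpl3, Rpl7, Rpl17, Rpl28 and Rpl31. Without Glut1Tg replicate 1 the median was -0.15. Leaving out WT replicate 4, the group 2 library with the most ribosomal protein counts, gave 8 members called, all lower: Rps3, Rps15a, Rps21, Rps27, Rpl17, Rpl19, Rpl36 and Rpl9-ps6. These are 8.51% of the members, below the 12.5% of all genes called lower in that fit. Of the 14 proliferation genes, 11 were called higher in group 2, but its libraries were unlike each other. These genes summed to 6498 CPM in WT replicate 2 and 6940 in Glut1Tg replicate 1. In WT replicates 4 and 5 the sums were 1763 and 2754 CPM, against 1282 to 2162 in group 1.

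Among the canonical members, Rps27 and Rps15a had the lowest fold changes. Rps27, a zinc finger protein of the 40S subunit (chromosome 3, 90212522 to 90213651, minus strand, GRCm38), was at 1228 and 1116 CPM in WT and 1476, 1736 and 1233 CPM in Glut1Tg libraries of group 1. In group 2 it was at 529, 1107 and 857 CPM in WT replicates 2, 4 and 5 and at 511 CPM in Glut1Tg replicate 1. All group 2 libraries lay below all of group 1, although WT replicates 3 and 4 were close. The log2 fold change was -0.87 (SE 0.30, edgeR adjusted p = 0.0597). Rps15a, another 40S protein, was at 1616, 1556, 1841, 2134 and 1572 CPM in WT replicates 1 and 3 and Glut1Tg replicates 2, 3 and 4. In group 2 it was at 813, 1528, 1139 and 752 CPM in WT replicates 2, 4 and 5 and Glut1Tg replicate 1. Its log2 fold change was -0.76 (SE 0.26, edgeR adjusted p = 0.057). DESeq2, limma-voom and limma on the deposited log2 table each called 2 members, Rps27 and Rps15a, as lower. That is 2.13%, 2.13% and 2.15% of the members, where these fits called 7.92%, 11.8% and 11.8% of the genes they fitted lower. Both are near the threshold, and the 2 libraries with the most proliferation transcripts were the lowest for each. Their genotype log2 fold changes were -0.04 (SE 0.30) and -0.09 (SE 0.25), and without a mouse group term these were 0.36 and 0.24.

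**Figure D4:**
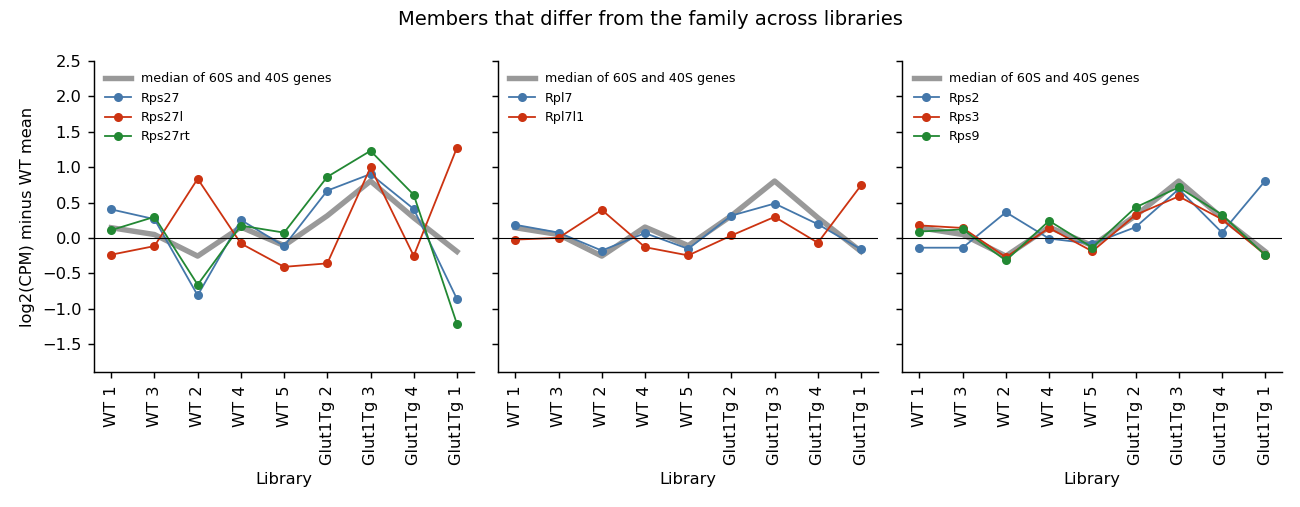
Log2 CPM in each of the 9 libraries (x axis) minus the mean of the 5 WT libraries (y axis) for Rps27 and its copies, Rpl7 and Rpl7l1, and 3 mRNA entry-site genes, with the median of the canonical members as a grey line. In WT replicate 2 and Glut1Tg replicate 1, Rps27l, Rpl7l1 and Rps2 lie above the WT mean and the grey line below it.

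Rps27l, a p53 target that can stand in for Rps27 in the ribosome, was at 38.5, 81.0, 41.9, 43.0 and 34.2 CPM in WT replicates 1 to 5. It was at 110, 35.4, 90.5 and 38.1 CPM in Glut1Tg replicates 1 to 4. Its 3 highest libraries were Glut1Tg replicates 1 and 3 and WT replicate 2. Of these, Glut1Tg replicate 1 and WT replicate 2 were the lowest for Rps27, and Glut1Tg replicate 3 was the highest. Its genotype fold change was 1.61 (0.92 to 2.81, edgeR adjusted p = 0.681) and its mouse group log2 fold change 0.64 (SE 0.36, edgeR adjusted p = 0.217). Of its 75-base windows 12% occur in other genes' transcripts, and the split of reads between such copies is uncertain. Rps27rt, a retrotransposed copy of Rps27 without introns, was at 1.44 to 7.83 CPM and had the same highest and the same lowest 2 libraries as Rps27, with a mouse group log2 fold change of -0.92 (SE 0.43, edgeR adjusted p = 0.145), but 90.3% of its windows and 98.5% of those of Rps27 are shared, so its counts are uncertain. Whether Rps27 and Rps27l differ in their response was not tested.

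Rpl7l1, a relative of Rpl7 that acts in ribosome biogenesis, was at 67.5, 90.4, 68.7, 62.7 and 57.9 CPM in WT and at 115, 70.3, 84.4 and 65.5 CPM in Glut1Tg. Glut1Tg replicate 1 and WT replicate 2 were the 2 highest libraries. Rpl7 itself was at 1906, 1480, 1765, 1757 and 1506 CPM in WT and at 1498, 2085, 2347 and 1917 CPM in Glut1Tg, with those 2 libraries the lowest. Rpl22l1 ran from 47.5 to 106 CPM and Rpl36al from 121 to 281, each highest in Glut1Tg replicate 3 like Rpl22 (352 to 711 CPM) and Rpl36a (347 to 748 CPM). Rpl39l, a paralog best known from the testis, was at 0.118 to 1.52 CPM against 407 to 815 CPM for Rpl39, and had the largest SD of log2 CPM over libraries, 1.07. Rpl3l, the striated muscle form of Rpl3, had a mean of 0.067 CPM and was not tested.

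Rps19bp1 was at 9.97, 11.97, 11.1, 12.5 and 10.8 CPM in WT and at 19.6, 11.99, 19.9 and 10.7 CPM in Glut1Tg, with Glut1Tg replicates 1 and 3 above all others. Its fold change was 1.46 (1.04 to 2.05, unadjusted p = 0.0314, edgeR adjusted p = 0.681). Of the 10 pseudogene-named members tested, Rpl7a-ps5 had a log2 fold change of 0.68 (SE 0.29), Rps18-ps3 one of -0.37 (SE 0.31) and Rps2-ps6 one of -0.03. These rows can take reads of their parents. The 183 further pseudogene and non-coding rows named for ribosomal proteins held 0.155% to 0.232% of the counts, or 1.82 to 2.35 per 100 member counts.

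Levels were compared between genes as CPM per kilobase of the annotated transcript. The canonical members spanned 105 to 3154 CPM per kilobase, with a median of 1354 and the 10th and 90th percentiles at 838 and 2456. Rps27 was highest at 3154, followed by Rps9 at 2943, Rplp1 at 2796 and Rpl41 at 2748. Rpl21 was lowest, at 105, and Rpl24 came next at 307, with 80.9% of its 75-base windows shared with other genes' transcripts. The ranking also rests on the annotated transcript chosen for each gene, of 271 to 3706 bases over the canonical members. Rpl21 was at 118, 76.5, 88.2, 99.7 and 80.0 CPM in WT and at 79.6, 79.9, 148 and 80.7 CPM in Glut1Tg, with WT replicate 1 and Glut1Tg replicate 3 above the rest. The table held 12 pseudogene rows named for Rpl21, and 47.5% of its windows are shared, and the sources used here do not say how reads with several matches were counted. Over the canonical members the median share of windows was 51.3%, 41 of 77 shared more than 50% and 2 shared none. In bins of sharing with 9, 27 and 41 members, from least to most, the median genotype log2 fold change was 0.17, 0.21 and 0.20 and the median mouse group one -0.34, -0.32 and -0.32. The members that varied least over the 9 libraries were Rpl3, Rpl10 and Rpl14, with SDs of log2 CPM of 0.16, 0.18 and 0.19.

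Genes that work with the ribosomal proteins were described from lists of known members. Gnb2l1 (Rack1) and Fau, ribosomal proteins that the naming rule leaves out, were not called and each had a genotype log2 fold change of 0.12. Fau, which encodes Rps30 fused to a ubiquitin-like protein, was at 858, 526, 933, 966 and 716 CPM in WT and 541, 1134, 1504 and 1031 CPM in Glut1Tg, lowest in the same 2 libraries as Rps27. Of 18 other TOP mRNAs, 0 were called by genotype, 16 lay above 0 and the median was 0.15. At an unadjusted p under 0.05, 3 were higher and 0 lower by genotype, where 4.5% of all genes were higher and 1.5% lower. By mouse group 2 of the 18 fell in group 2, both subunits of the initiation factor eIF3. Eif3e fell by 0.68 (SE 0.17, edgeR adjusted p = 0.0206) and Eif3h by 0.46 (SE 0.15, edgeR adjusted p = 0.0495) on the log2 scale. A share of 2 in 18 is close to the 11% of all genes called lower.

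Chaperones and importins guard ribosomal proteins and bring them to the nucleus. Of 10 tested, 0 were called by genotype, with a median of 0.41. At an unadjusted p under 0.05, 2 of the 10 were higher and 0 lower, where 4.5% of all genes were higher and 1.5% lower. Grwd1, the chaperone of Rpl3, had a log2 fold change of 0.84 (SE 0.29) and Tsr2, that of Rps26, of 0.42 (SE 0.16). By mouse group 3 rose in group 2, the importins Kpnb1 (1.02, SE 0.25, edgeR adjusted p = 0.021) and Ipo9 (0.77, SE 0.24, adjusted p = 0.047) and Heatr3, which imports Rpl5 (0.89, SE 0.26, adjusted p = 0.0375). Kpnb1 was at 518 CPM in WT replicate 2 and 633 in Glut1Tg replicate 1, and at 207 to 273 CPM in the other 7 libraries. Tsr2 fell by 0.88 (SE 0.16, edgeR adjusted p = 0.00737). Of 14 regulators of TOP mRNA translation, 0 were called by genotype, and 3 rose in mouse group 2: Mlst8, a subunit of the mTOR complexes (1.01, SE 0.15), Larp4b (0.86, SE 0.20) and Tia1 (0.78, SE 0.21), with edgeR adjusted p-values of 0.00328, 0.017 and 0.0285. Of all genes, 13.1% were called higher and 11% lower by mouse group, which is to be set beside these counts of 3 in 10 and 3 in 14. Larp1 and Mtor did not pass in either comparison.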

How the data were processed

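Total RNA was prepared with the RNeasy Plus kit, per the labels' protocols, and made into stranded TruSeq mRNA libraries that were read as 75 bp pairs. The submitters' processing notes name bcl2fastq, TopHat2, featureCounts, DESeq2 and the build mm10; the sources used here give no versions, roles or strand setting. The deposited counts are whole numbers per gene and library that the authors did not normalize. The deposited log2 table, which the authors set relative to the WT libraries of mouse group 1, per its values, served 1 alternative only.

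In R 4.3.3, edgeR 4.0.16 kept genes by filterByExpr, scaled libraries by TMM and fitted a quasi-likelihood model of genotype and mouse group over all 9 libraries. An interaction term was tested in a second fit. The p-values were adjusted by Benjamini-Hochberg over all 14817 genes, with a threshold of 0.05. SEs were derived from the log2 fold change and its F statistic. Log2 CPM have a prior count of 2. The fit was tested on simulated data. Alternatives used other scalings, filters, DESeq2 1.42.0, limma 3.58.1, other terms and libraries left out.

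The members and lists were chosen with earlier results of these data known. The text names members that pass a test, the P stalk genes, Rpsa and Rps6, the 3 of each subunit with the highest mean CPM, the 5 highest and 5 lowest genotype fold changes, the 3 with the smallest and the 3 with the largest SD, and paralogs with their partners. Rps3, Rps3a1, Rps21, Rpl7a, Rps12, Rpl17, Rpl19, Rpl24, Rpl28, Rpl31, Rpl32, Rpl36, Rpl9-ps6, the single genes of role groups, Tsr2, Grwd1, Larp1 and Mtor were named after their values were seen where they fall outside it. Gene locations and transcripts are from GENCODE vM21, the build of the files, and all 101 members matched it by gene ID. Shared windows are stretches of 75 bases found in a transcript of another gene, on either strand. They were counted singly, without the mate or strand of a read, so their shares can overstate how many read pairs are ambiguous. Starts and promoters are from RefSeq's table for GRCm38.p6, matched by symbol. Results for some listed genes are not reported here.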

Additional observations from a re-analysis of the deposited data

Results flagged for a closer look

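In 68 groups of 4 or 5 libraries, 7 had a highest library further from the rest than Dixon's test allows at 95%; chance flags about 1 in 20 groups. The 60S to 40S ratio of counts was 1.35 in Glut1Tg replicate 1, the only Glut1Tg library of mouse group 2, against 1.28 in the other 3 Glut1Tg libraries. In WT, replicate 2 was distant for Rps27l at 81.0 CPM and for Rps2 at 1176 CPM. In Glut1Tg, replicate 3 was distant for Rpl41 at 2276, Rpl21 at 148, Rpl36al at 281 and Rpl36a at 748 CPM. Many sequence windows of Rpl36a (84.6%) and Rpl36al (61.3%) occur in transcripts of other genes. The members share these libraries, so the flags are not independent of each other.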

How the results depend on the processing

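No member was called by genotype in any alternative run. The median genotype log2 fold change of the members was 0.12 to 0.21 over the scalings, with the median of all genes at -0.06 with library totals alone; it was 0.34 without a mouse group term, or without Glut1Tg replicate 1 and WT replicate 2 (chosen after seeing the data), and 0.06 without Glut1Tg replicate 3. With the replicate block beside mouse group it was 0.21, 0 genes were called by genotype and 0 by mouse group, and 15 members lay above 0 between mouse groups. The replicate numbers do not pair the libraries: the deviations of same-numbered libraries correlated at -0.51, -0.59, 0.23 and -0.21, and no Glut1Tg library correlated best with its own number. Genes called by genotype were 1 in the reported fit, 2 without the low-count filter, 17 with DESeq2, 1 to 2 leaving out 1 library and 0 leaving out the 2 named above. Members called by mouse group were 2 with DESeq2, 2 with limma-voom and 2 with the deposited log2 table, and 0 to 8 leaving out 1 library. Genes called by mouse group were 651 to 4575 (3576 in the reported fit) and by the interaction 0 to 140, the latter without WT replicate 2, leaving out 1 library. Upper-quartile scaling moved the median interaction of all genes to -0.12 and that of the members from -0.45 to -0.59. The interaction without Glut1Tg replicate 1 could not be fitted.

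Genotype log2 fold changes near 0 changed sign in some alternatives. Rpl3 was -0.016 with upper-quartile scaling and -0.042 with library totals. Rps27 was 0.012 with the replicate block. Without a mouse group term Rps15a was 0.24, Rpl21 0.070, Rps27 0.36 and Rps2-ps6 0.025. Leaving out libraries gave ranges of -0.0049 to 0.24 for Rps6, -0.23 to 0.19 for Rps15a, -0.26 to 0.042 for Rpl21, -0.22 to 0.31 for Rps27, -0.62 to 0.28 for Rps2-ps6, -0.025 to 0.087 for Rpl3, -0.025 to 1.59 for Rpl39l and -0.27 to 0.68 for Rps27rt. The cause was not tested. The share of counts kept its difference with other denominators. Depth limits Rpl3l, Rpl39l and the pseudogene-named rows, at few counts per library.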
